A study of Rattus norvegicus with 3 samples.

Results

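The genes described here are 55 regulators of the cell cycle, 46 classed as drivers of division and 9 as inhibitors. They were chosen by symbol and measured in RNA from the acellular fraction of rat spinal cord. A row was found for 53 of them among the 12758 gene symbols of the table, 44 drivers and all 9 inhibitors. MYC and CCNB2 have no row in the table analysed here and are absent from every count. The rats were female Sprague Dawley animals 3 months of age, which had the cord exposed by laminectomy at T9 and either left uninjured (No-SCI) or contused (SCI). Tissue just rostral to the injury was taken 24 h later, dissociated in the cold with a cold active protease, and spun to pellet the cells, so that the RNA came from the supernatant, which the study used to enrich RNA of axons. By the labels 2 libraries belong to No-SCI and 1 to SCI, while the methods state 2 animals per condition.

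Each gene has 1 FPKM value for No-SCI and 1 for SCI, the authors' estimate for the group in fragments per kilobase of transcript and per read depth (FPKM). No spread between animals, standard error or test can be given, and every difference below is a difference between 2 estimates with no replicate check. The number of reads behind a value is unknown. In 25 of the 53 members, and in 7484 of all 12771 entries, a value has 7 or more digits. This was not explained and limits comparisons of level between genes, also those given as ratios below. Over all 12771 entries the SCI to No-SCI log2 ratio had a median of −0.12, so log2 ratios are given relative to that median, which adds 0.12 to each, and a gene was counted as past 2-fold when this relative log2 ratio reached 1 in size. The middle 50% of all entries lay between −0.50 and 0.49 on this scale.

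A dividing cell goes through G1, in which D-type and E-type cyclins with CDK4, CDK6 and CDK2 release E2F from the RB1 protein, then through S phase, in which DNA is copied, and through mitosis, in which CDK1 with cyclins A and B and the Aurora and Polo kinases build and pull apart the spindle. CDK inhibitors and p53 target genes stop this sequence of steps. Most neurons and oligodendrocytes of the adult cord have left the cycle. Cells that can enter it after injury include microglia, oligodendrocyte precursors, endothelium, fibroblasts and some infiltrating leukocytes.

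Short promoter elements are known to time these genes. E2F sites are typical of genes for G1 and DNA synthesis, the cell cycle genes homology region (CHR) of genes for mitosis, and p53 response elements of several inhibitors. The promoter table of RefSeq (GRCr8) had a window for 41 of the 53 members, and the 250 bases before the start were searched on both strands. Coordinates are those of GRCr8, not of rn6, the build used for the FPKM values. The motifs were TTTCGCGC, TTTGGCGC, TTTCCCGC and TTTGCCGC for E2F, TTTGAA and TTCGAA for the CHR, CCAAT for the CCAAT box, and the p53 half-site. Stretches of up to 30 bases are shown for 3 or 4 genes of each class, with the match nearest to the start in capitals, as the motif or its reverse complement, because the classes split along the roles that order the results below. The 3 mitotic genes are those with the largest log2 ratios in size among those with a CHR match, 1 start and at least 5 FPKM in the higher group.
CDK1 (GRCr8 chr20:19265265-19265292, + strand): taccgcggtgagTTTGAAactgctggca
CDC20 (GRCr8 chr5:137255833-137255862, − strand): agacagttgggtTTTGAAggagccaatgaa
PTTG1 (GRCr8 chr10:28406338-28406367, − strand): cgcgagttggaaTTCAAActgcggtgcgcc

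In CDK1 the CHR match lies 16 to 11 bases before the start, in PTTG1 29 to 24 and in CDC20 51 to 46. The replication genes with an E2F match were chosen in the same way.
TYMS (GRCr8 chr9:120776103-120776130, − strand): aggtgcgggtTTTGGCGCcgactacact
MCM5 (GRCr8 chr19:13488793-13488812, + strand): cccaggttggttTTTCCCGC
MCM7 (GRCr8 chr12:22163213-22163240, − strand): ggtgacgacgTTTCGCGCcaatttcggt
MCM6 (GRCr8 chr13:42404470-42404497, − strand): tctgcttttgGCGCGAAAttagcgtgtg

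The inhibitors with a p53 half-site match, again chosen in that way, include CDKN1A and GADD45A, both classical p53 targets.
CDKN1A (GRCr8 chr20:7150721-7150750, + strand): tggctttcagGAACATGTCTtgacttgttc
CDKN2C (GRCr8 chr5:129644892-129644914, − strand): agtggagagcttGAGCTAGCTCg
GADD45A (GRCr8 chr4:97486828-97486857, − strand): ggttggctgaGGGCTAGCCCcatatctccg
CCNG1 (GRCr8 chr10:25685089-25685118, − strand): agacctgcccGGGCAAGCCTtggcattgaa

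An E2F match was in 6 of 9 replication genes with a window, against 1.73% of all 33469 windows of the same length. A CHR match was in 12 of 19 mitotic genes, against 17.4% of all windows. A p53 half-site match was in 5 of 8 inhibitors, against 6.64% of all windows. The CCAAT box was in 16 of the 19 mitotic genes and 7 of the 9 replication genes, against 34.0% of all windows. UHRF1 has 3 windows and was counted as holding a motif if any of them did, and in 4 genes the matches of 2 motifs overlapped. CCNE1 and CCND3, among the 6 genes with the largest log2 ratios that have a window, held no E2F, CHR or p53 match. A match is a run of letters and was not shown to be bound.

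**Figure D1:**
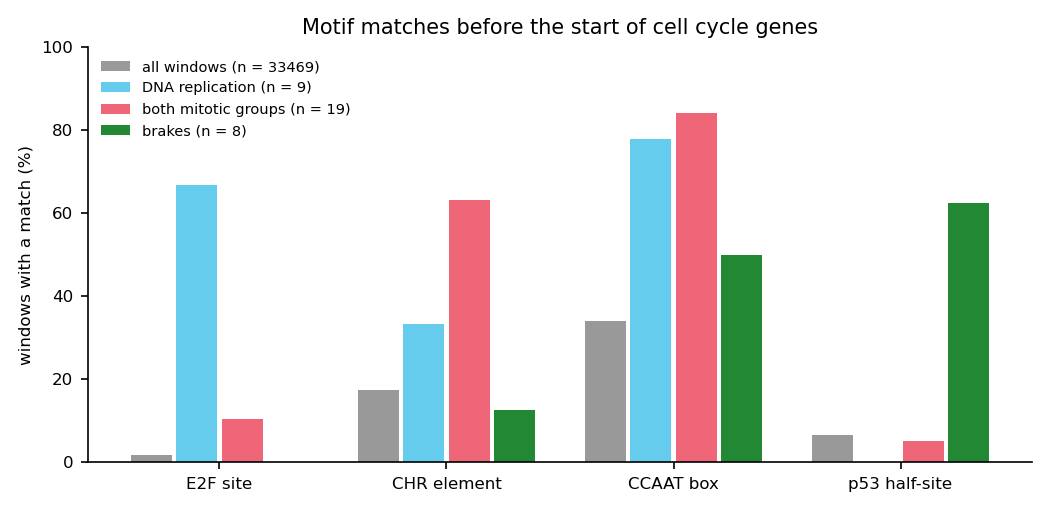
Share of promoter windows with a match (%) for 4 motifs in the 250 bases before the start, for all 33469 windows and for the replication genes, both mitotic groups and the brakes, with the number of genes in the key. E2F matches are in 66.7% of the replication genes, CHR matches in 63.2% of the mitotic genes and p53 half-site matches in 62.5% of the brakes.

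Over all 53 genes, 7 were past 2-fold higher after SCI and 0 were past 2-fold lower. Of all entries 9.55% were past 2-fold higher and 9.59% past 2-fold lower, against 13.2% and 0.0% of the members, so the share that was higher is near the background. The genes past the fold were CDK6, CCNE1, CCNA2 and UBE2C among the drivers and CDKN2C, CDKN1A and CDKN1C among the inhibitors. UBE2C lay just inside the limit with a log2 ratio of 1.02, and CCND3 just outside with 0.96. At 1.5-fold 18 genes were higher and 3 lower, against 21.0% and 21.5% of all entries. At 3-fold only CDK6 was higher and none was lower, against 3.71% and 2.48% of all entries. The median log2 ratio of the members was 0.31, with 36 of 53 above the median of all entries.

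**Figure D2:**
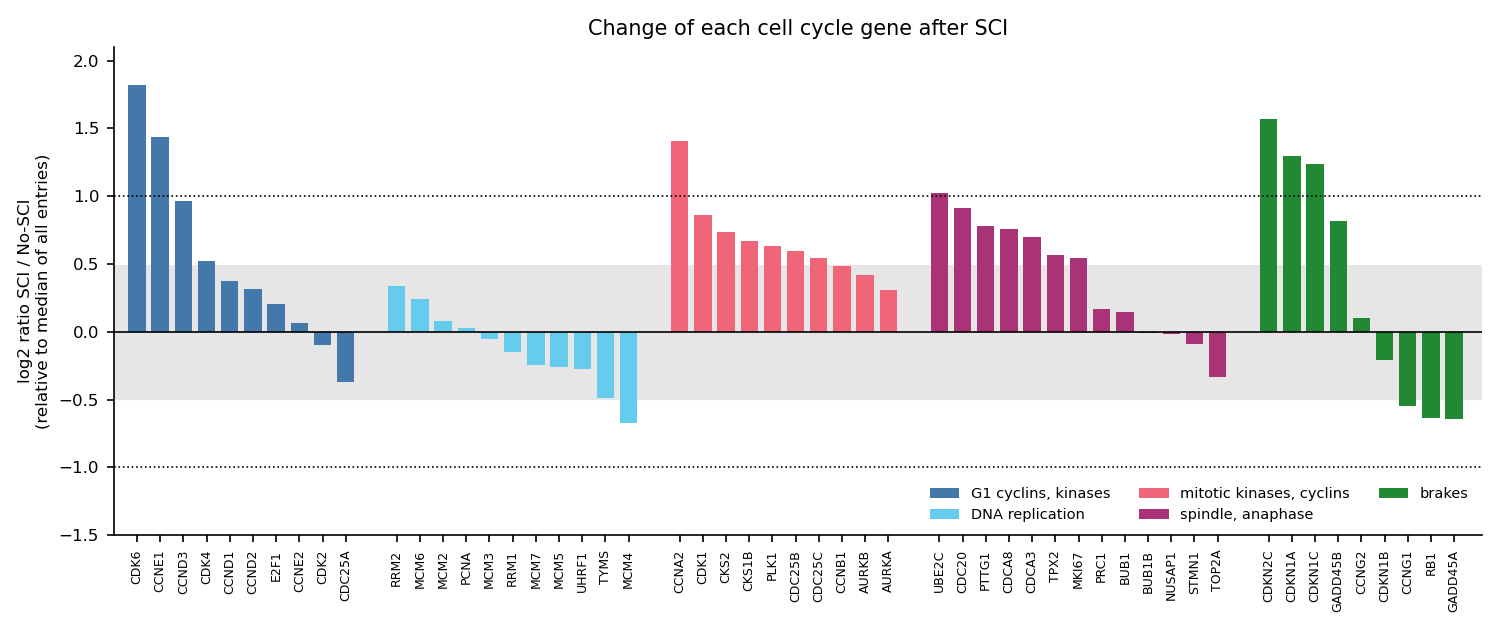
Log2 ratio of SCI to No-SCI for each of the 53 genes, relative to the median of all entries, coloured by role. Dotted lines mark 2-fold, the grey band is the middle 50% of all entries (−0.50 to 0.49), and the bars run from 1.82 for CDK6 to −0.67 for MCM4.

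The medians of the groups by role lay further apart than those of drivers and inhibitors. The median log2 ratio was 0.34 for the G1 cyclins and kinases (10 genes), −0.15 for DNA replication (11 genes), 0.62 for the mitotic kinases and cyclins (10 genes) and 0.55 for the spindle and anaphase genes (13 genes). In the mitotic groups together 19 of 23 genes were above the median of all entries, and 4 of 11 replication genes were. In the ratios as deposited 19 and 2 were above 0, since PCNA and MCM2 changed sign. The median of the mitotic groups was 0.72 above that of the replication genes. This difference is between 2 sets of genes in 1 pair of estimates, and genes are not replicates.

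CDK6, a partner of the D-type cyclins, had the largest difference, with 26.7 FPKM in No-SCI and 87.0 FPKM in SCI and a log2 ratio of 1.82. Its relative CDK4 was at 48.7 and 64.6 FPKM, a log2 ratio of 0.52. CDK6 was thus the lower of the pair in No-SCI, at 0.547 times the FPKM of CDK4, and the higher in SCI, at 1.35 times. Both genes have a value with 7 or more digits, so the limit on comparing levels applies to this pair. CCNE1, the cyclin that activates CDK2 at the entry into S phase, went from 3.503 to 8.72 FPKM (log2 ratio 1.43), while CCNE2, of the same role, was at 19.4 and 18.7 FPKM. CCNE2 stayed the more abundant E-type cyclin, with the ratio of CCNE1 to CCNE2 at 0.181 in No-SCI and 0.467 in SCI. In both pairs the member that was scarcer in No-SCI had the larger ratio. The same held for GADD45B beside GADD45A, but not for AURKA beside AURKB or CDKN1B beside CDKN1A.

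The 3 D-type cyclins, which carry growth factor signals to CDK4 and CDK6, kept their order of levels. CCND1 was highest, with 342 FPKM in No-SCI and 409 FPKM in SCI, at percentile 95.4 of all entries in No-SCI. CCND2 was at 162 and 186 FPKM. CCND3 was at 93.8 and 168 FPKM, so that its ratio to CCND2 went from 0.578 to 0.905. Their log2 ratios were 0.37, 0.31 and 0.96.

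CDK2, the kinase of the E-type cyclins, was at 38.0 FPKM in No-SCI and 32.7 FPKM in SCI (log2 ratio −0.10). E2F1, which switches on genes of DNA synthesis, was at 14.8 and 15.8 FPKM (log2 ratio 0.21). CDC25A, a phosphatase that activates CDK2, was at 14.1 and 10.1 FPKM (log2 ratio −0.37), the lowest ratio of the G1 group. All 3 lay within the middle 50% of all entries.

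None of the replication genes was past 2-fold, and as deposited 9 of 11 were lower in SCI, with a median log2 ratio of −0.27. PCNA, the sliding clamp of the DNA polymerases, had 96.2 FPKM in No-SCI and 90.5 FPKM in SCI. The MCM helicase, which opens DNA at origins, is a ring with 1 copy of each of MCM2 to MCM7, yet the FPKM of its subunits in No-SCI ran from 10.04 for MCM3 to 68.6 for MCM7. In SCI it ran from 6.50 for MCM4 to 53.4 for MCM7. MCM4 went from 11.2 to 6.50 FPKM, the lowest log2 ratio of all members at −0.67, and MCM6 from 11.9 to 12.9 FPKM (0.24), the highest of the ring. The other MCM subunits lay between, with MCM2 at 21.9 and 21.4 FPKM, MCM3 at 10.04 and 8.93 FPKM, MCM5 at 35.8 and 27.6 FPKM and MCM7 at 68.6 and 53.4 FPKM.

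Enzymes that supply DNA precursors were split. RRM2, the S phase subunit of ribonucleotide reductase, was at 10.5 and 12.3 FPKM (log2 ratio 0.34), and RRM1, its large subunit, at 17.1 and 14.1 FPKM (−0.15). TYMS, thymidylate synthase, was at 30.6 FPKM in No-SCI and 20.1 FPKM in SCI (−0.49). UHRF1, which takes part in copying DNA methylation to the new strand, was at 41.6 and 31.7 FPKM (−0.27). Of the 11 replication genes, 0 were past 1.5-fold higher and 1, MCM4, was past 1.5-fold lower, against 21.0% and 21.5% of all entries.

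All 10 mitotic kinases and cyclins with a row were higher in SCI, also in the ratios as deposited. CCNA2, the cyclin that works in S phase and at the entry into mitosis, went from 23.8 to 58.3 FPKM (log2 ratio 1.41). CDK1, the main mitotic kinase, went from 76.5 to 128 FPKM (log2 ratio 0.86). CCNB1, its partner in mitosis, was at 13.1 and 16.9 FPKM (0.49). CDK1 thus had a higher FPKM than either cyclin in both groups, though CDK1 and CCNA2 each have a value with 7 or more digits. The ratio of CCNB1 to CDK1 was 0.171 without injury and 0.132 with it, and that of CCNA2 to CDK1 was 0.311 and 0.454. CKS1B and CKS2, small proteins that bind CDK1, were at 30.7 and 45.0 FPKM and at 33.9 and 52.0 FPKM, with log2 ratios of 0.67 and 0.74. The table also has a row for the related CKS1L, and how reads were divided between CKS1B and CKS1L is not known.

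The other kinases and phosphatases of mitosis were all under 2-fold. PLK1, the Polo kinase, was at 11.3 FPKM in No-SCI and 16.2 FPKM in SCI (log2 ratio 0.64). AURKA, at the spindle poles, was at 35.5 and 40.4 FPKM (0.30), and AURKB, at the centromeres, at 60.3 and 74.4 FPKM (0.42). CDC25B and CDC25C, phosphatases that switch on CDK1, were at 9.66 and 13.5 FPKM (0.60) and at 5.25 and 7.07 FPKM (0.55). CCNA2 was the only 1 of these 10 genes past 2-fold higher, against 9.55% of all entries, so this share is near the background. Past 1.5-fold higher were 6 of the 10, against 21.0% of all entries.

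The largest log2 ratios of the spindle and anaphase genes were those of UBE2C, CDC20 and PTTG1. UBE2C, the ubiquitin-conjugating enzyme of the anaphase-promoting complex, went from 78.0 to 146 FPKM (log2 ratio 1.02, and 0.90 as deposited). CDC20, the activator of that complex, was at 12.9 and 22.3 FPKM (0.91). PTTG1, securin, which the complex destroys to let the chromatids part, was at 69.0 and 109 FPKM (0.78). CDCA8, a subunit of the chromosomal passenger complex, was at 22.7 and 35.4 FPKM (0.76), and CDCA3 was at 159 and 237 FPKM (0.70). These 5 were the spindle and anaphase genes past 1.5-fold (38.5%), all higher, against 21.0% of all entries.

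TPX2, which activates AURKA on the spindle, was at 73.9 FPKM in No-SCI and 101 FPKM in SCI (log2 ratio 0.57). MKI67, the gene of the proliferation antigen Ki-67, was at 3.86 and 5.19 FPKM (0.55), at percentile 15.9 of all entries in No-SCI. TOP2A, the topoisomerase that untangles chromosomes and like Ki-67 a common proliferation marker, was at 11.8 and 8.61 FPKM (−0.34). These 2 markers of dividing cells therefore lay on opposite sides of the median of all entries. The mitotic checkpoint kinases BUB1 and BUB1B were at 5.08 and 5.20 FPKM (0.15) and at 3.94 and 3.61 FPKM (−0.01). PRC1, which bundles microtubules of the central spindle, was at 143 and 148 FPKM (0.17), and NUSAP1, a microtubule binder, at 60.8 and 55.4 FPKM (−0.02).

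STMN1, stathmin, which destabilizes microtubules in dividing cells and is also expressed by neurons, was by far the most abundant member, with 3363 FPKM in No-SCI and 2909 FPKM in SCI (log2 ratio −0.09). It lay at percentile 99.7 of all entries in No-SCI. Without STMN1 and the 3 D-type cyclins, which cells outside the cycle also express, the median log2 ratio of the drivers was 0.32.

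**Figure D3:**
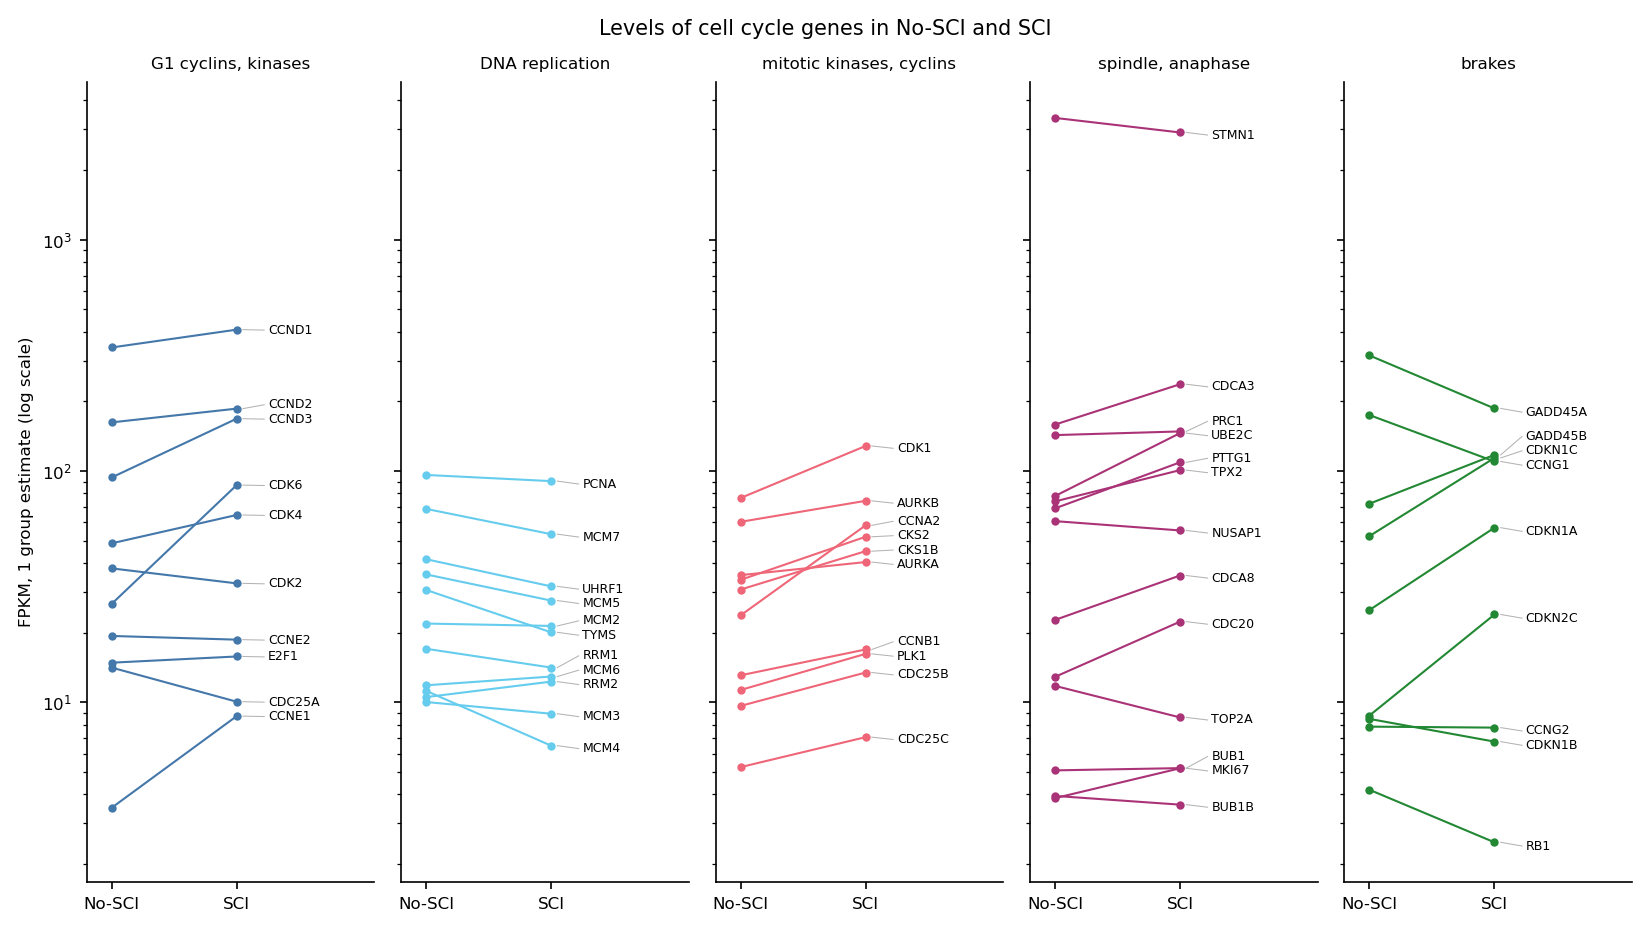
FPKM of each of the 53 genes in No-SCI and SCI on a log scale, 1 point per group estimate joined by a line, in 5 panels by role. The 10 mitotic kinases and cyclins all slope upwards, 9 of the 11 replication genes slope downwards, and CDK6 crosses CDK4.

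The 9 inhibitors were divided. CDKN2C, which gives the INK4 protein p18 that binds CDK4 and CDK6, went from 8.78 to 23.99 FPKM (log2 ratio 1.57). CDKN1A, which gives p21, the CDK inhibitor under p53, went from 25.1 to 56.9 FPKM (1.299). CDKN1C, which gives p57, went from 52.4 to 114 FPKM (1.24). These 3 of the 9 (33.3%) were past 2-fold, all higher, against 9.55% of all entries. CDKN1B, which gives p27, was at 8.48 FPKM in No-SCI and 6.77 FPKM in SCI (−0.21), so the 3 genes of the CIP/KIP family did not move together. CDKN1A had 2.96 times the FPKM of CDKN1B without injury and 8.41 times with it, and the ratio of CDKN1C to CDKN1A was 2.09 and 2.002.

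The stress genes GADD45A and GADD45B, whose proteins bind PCNA and CDK1, went in opposite directions. GADD45A was at 316 FPKM in No-SCI and 187 FPKM in SCI (log2 ratio −0.64), and GADD45B at 72.3 and 118 FPKM (0.82). GADD45A remained the higher of the pair, at 4.37 times GADD45B in No-SCI and 1.59 times in SCI. CCNG1, a p53 target classed here as an inhibitor, was at 175 and 110.0 FPKM (−0.55), and CCNG2, of the same family, at 7.86 and 7.78 FPKM (0.10). RB1, the retinoblastoma protein that holds E2F, was at 4.19 and 2.48 FPKM (−0.64), the lowest level of any member in SCI. Of the 5 inhibitors with a p53 half-site match, CDKN1A and CDKN2C were higher in SCI, and GADD45A, CCNG1 and RB1 lower.

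Set against each other, drivers had a median log2 ratio of 0.33 over 44 genes and inhibitors 0.10 over 9. The difference of 0.22 did not hold under other choices. With genes of a mean under 5 FPKM left out, which removes RB1, BUB1B and MKI67, it was −0.13, and with CCNG1, CCNG2 and RB1 left out it was −0.70. Of the drivers 4 of 44 were past 2-fold higher (9.09%), and of the inhibitors 3 of 9 (33.3%), against 9.55% of all entries. The inhibitors spread from −0.64 to 1.57 and the drivers from −0.67 to 1.82.

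Members could also be ordered by the motifs before their starts. Those with a CHR match and no E2F match (13 genes) had a median log2 ratio of 0.55, and those with an E2F match and no CHR match (6 genes) −0.27. The 3 genes with both, CDK1, MCM2 and MCM7, had 0.86, 0.08 and −0.25, and the 19 genes with neither had a median of 0.30. The roles and the motifs overlap, so this is not a separate result.

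Other genes of the same pathways, from 4 lists that hold no member, did not show the split between replication and mitosis. Of 37 origin and replication fork genes 2 were past 2-fold higher (5.41%) and 1 lower (2.7%), and their median log2 ratio was 0.16. Of 39 kinetochore, spindle and condensation genes 1 was past 2-fold higher and 1 lower (2.56% each), with a median of 0.11. The shares of all entries were 9.55% higher and 9.59% lower. The higher genes were POLA2, the B subunit of DNA polymerase alpha (18.9 and 59.9 FPKM), CDT1, the licensing factor that loads the MCM ring (3.27 and 6.22 FPKM), and SPC24, a kinetochore protein (83.5 and 157 FPKM). CDT1 and SPC24 were under 2-fold in the ratios as deposited, with log2 ratios of 0.93 and 0.91. The lower genes were PRIM2, a primase subunit (330.3 and 142 FPKM), and ANLN, anillin of the cleavage furrow (19.6 and 6.997 FPKM). In the kinetochore list 16 of 34 genes with a window held a CHR match (47.1%), and their median log2 ratio was 0.10 against 0.26 for those without. In the other 3 lists few genes held a CHR match, and the median with it was above that without. It was 0.43 against 0.12 for the origin and replication fork genes (4 of 32 held it), 0.28 against −0.01 for the anaphase-promoting complex and SCF (2 of 16) and 0.24 against 0.14 for the other brakes (4 of 20). Over all 4 lists it was 0.23 for 26 genes with a match against 0.14 without, a smaller gap than the 0.55 and 0.10 of the members.

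The 19 genes of the anaphase-promoting complex and the SCF ubiquitin ligase had a median log2 ratio of −0.01. Of these, 1 was past 2-fold higher (5.26%) and 0 lower, against 9.55% and 9.59% of all entries. That gene was FZR1, the activator of the anaphase-promoting complex in G1, at 4.37 and 8.94 FPKM. The subunit ANAPC13 was abundant, with 915 FPKM in No-SCI and 1207 FPKM in SCI. Of 28 other brakes and damage response genes 4 were past 2-fold higher (14.3%) and 2 lower (7.14%), with a median of 0.25. The higher ones were MXD4, an antagonist of MYC (101 and 332 FPKM), BTG1 (11.99 and 30.9 FPKM) and BTG3 (4.16 and 17.5 FPKM), antiproliferative genes of the BTG family, and GAS1, named for its expression in growth arrest (1.31 and 5.77 FPKM). RBL2, the pocket protein p130 of resting cells, was at 57.2 and 23.6 FPKM (log2 ratio −1.16), and CHEK1, a checkpoint kinase of DNA replication, at 36.0 and 16.2 FPKM (−1.04).

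**Figure D4:**
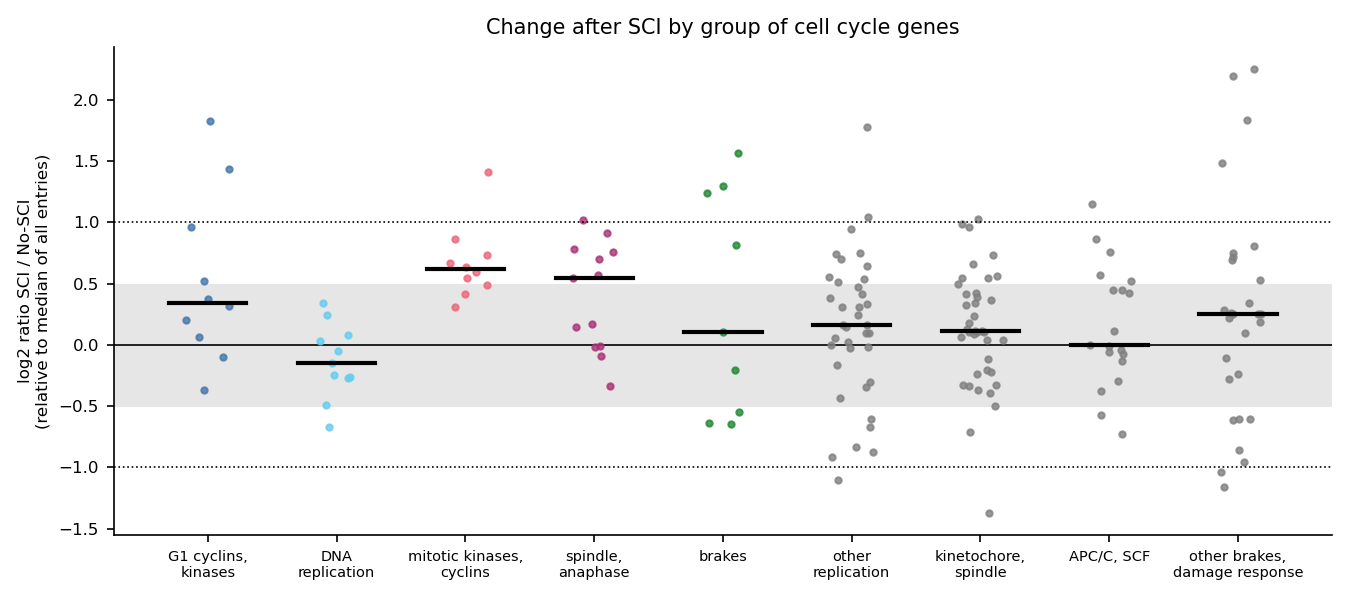
Log2 ratio of SCI to No-SCI, relative to the median of all entries, for each gene (points) and the median (black line) of the 5 groups of members (coloured) and of 4 other cell cycle lists (grey), with the middle 50% of all entries as a grey band. The mitotic groups have medians of 0.62 and 0.55 and replication −0.15, while the 4 other lists lie between −0.01 and 0.25.

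Cell type markers differed in both directions between the groups. In this fraction fewer cells of a type and less RNA per cell cannot be told apart. All 6 fibroblast and meningeal markers were higher in SCI, 5 of them past 2-fold, and their median level was 2.22 FPKM without injury and 8.97 FPKM with it. Of 4 neutrophil markers S100A8 (32.4 and 94.1 FPKM) and S100A9 (14.3 and 46.6 FPKM) were past 2-fold higher, while LCN2 (39.4 and 21.8 FPKM) and CSF3R (17.1 and 8.97 FPKM) were past 1.5-fold lower. The neutrophil markers were thus evenly split. Of 6 microglia and macrophage markers 1 was past 2-fold higher, CD68 (9.89 and 26.6 FPKM), and 2 were lower. Oligodendrocyte precursor markers had 0 past 2-fold higher and 2 lower of 6, and endothelial markers 1 higher and 0 lower of 5. All 5 skeletal muscle markers were past 2-fold lower, as were 3 of 5 oligodendrocyte markers, 2 of 5 neuronal markers and 1 of 2 astrocyte markers. Among all entries 9.55% were past 2-fold higher and 9.59% lower. The defining markers GFAP, AQP4, MBP and SNAP25 have no row. The part of these cell types in the values of the cell cycle genes was not tested.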

How the data were processed

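Strand-specific total RNA libraries, depleted of ribosomal RNA, were downsampled by the authors to the smallest library, aligned to rn6 with STAR 2.5.4b and compared with Cuffdiff (cufflinks 1.3.0, upper quartile normalization). The authors deposited 1 FPKM value per group for each entry, with no value per library and no counts, and 0 per-sample columns were left unassigned. Their fold change, p-value and q-value columns hold their own comparison and were not used. No FPKM lies under 1, and 87.7% of values between 1 and 2 carry 6 decimals against 40.2% between 2 and 3, so a constant may have been added, which would shrink the ratios of low genes. In 25 of the 53 members, and in 7484 of all 12771 entries, a value has 7 or more digits, 1 more than a Cuffdiff estimate. This was not explained and limits comparisons of level between genes.

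From the FPKM values log2 ratios (SCI over No-SCI) were taken with no pseudocount and centred on the median of all entries. For the 13 symbols with 2 entries, none of them a member, the larger was used. Members were named by symbol, and every member with a row may be named, as may genes of the other lists past 2-fold with at least 5 FPKM in the higher group, their most abundant genes, and markers. Promoter stretches were fixed for the 6 members of largest log2 ratio, and the others were chosen after values were seen. Members and lists were chosen with earlier results of these data known. The log2 ratio step was tested on simulated data, with known folds put into the No-SCI values. Python 3.11.15, numpy 2.4.6, pandas 2.3.3 and matplotlib 3.10.9 were used.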

Additional observations from a re-analysis of the deposited data

How the results depend on the processing

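No paired analysis was possible because each group has 1 value per gene, and no library could be left out, so nothing here measures the spread between animals. The count of genes past 2-fold was 7 higher and 0 lower, 6 higher as deposited and with both groups at the same total, where UBE2C dropped out, and 7 under the other scalings, pseudocounts and filters. It was 18 higher and 3 lower at 1.5-fold, against 21.0% and 21.5% of all entries, and 1 higher at 3-fold, against 3.71%. At 1.5-fold as deposited, a setting added after the data were seen, it was 14 higher and 5 lower. The shares of all entries past a fold were taken only relative to the median. As deposited 7196 of the 12771 entries were lower in SCI, so these last counts have no background to be read against. CCNE2, PCNA, MCM2 and CCNG2 changed sign between scalings, and the other 49 members did not. With a pseudocount of 1, BUB1B also changed sign, from −0.0084 to 0.0057.

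The median of the drivers was 0.21 as deposited, 0.25 at the same total, 0.31 at the same upper quartile, 0.31 with a pseudocount of 1, 0.35 with 1 subtracted, 0.32 with a mean of at least 5 FPKM, 0.35 as a mean, and 0.32 without STMN1 and the D-type cyclins (added later). That of the inhibitors was −0.014 as deposited, 0.031 at the same total, 0.089 at the same upper quartile, 0.092 with a pseudocount, 0.11 with 1 subtracted, 0.46 with the minimum mean and 0.33 as a mean. The driver minus inhibitor difference was 0.21 with a pseudocount, 0.24 with 1 subtracted, −0.13 with the minimum mean, 0.022 with means, and −0.70 without CCNG1, CCNG2 and RB1. The mitotic minus replication difference was 0.69, 0.81, 0.75 and 0.65 in the first 4 of these settings, which were added later for it. Summing repeated symbols changed no count or median at the digits printed.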

Other observations

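Pocket proteins and the E2F factors they bind lay on both sides of the median of all entries. RBL1, the pocket protein p107, was at 5.96 FPKM in No-SCI and 6.52 FPKM in SCI. E2F4 was at 20.8 and 23.4 FPKM, and E2F5 at 5.35 and 8.28 FPKM. Relative log2 ratios were 0.25 for RBL1, 0.28 for E2F4 and 0.75 for E2F5. RBL2 was past 2-fold lower, and RB1 was lower as well, at −0.64. The activators of mitotic genes also lay on both sides, with MYBL2 at 5.33 and 8.16 FPKM (0.73) and FOXM1 at 30.5 and 23.8 FPKM (−0.24). RBL1, E2F4 and FOXM1 lay within the middle 50% of all entries. These genes were chosen after their values were seen.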
